A study of Mus musculus with 4 samples.

Results

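Messenger RNA of 35 genes of the DNA replication and S phase machinery was compared between Fbw7-deficient and wild-type bone marrow progenitors of the mouse. The genes were listed by name for their role and by no threshold on a measured value, with earlier results of these data known, and all 35 are among the 18193 genes that the array annotation names. They have 83 probe sets that name 1 gene only, and each gene is given by its brightest probe set (by mean log2 over the arrays), with the others as a check. All 35 reached an intensity of 157, the median of the whole table, on at least 1 array, as did 12239 of the 18193 genes.

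A cell licenses its origins of replication before S phase. The origin recognition complex, Cdc6 and Cdt1 load the MCM hexamer onto DNA as an inactive helicase, and geminin, encoded by Gmnn, restrains Cdt1 so that an origin fires once per cycle. The kinase Cdc7 with its activator Dbf4, together with Mcm10, Cdc45 and the GINS complex, then turns the hexamer into the moving helicase that the polymerases follow. Many of these genes are targets of E2F transcription factors and reach their highest RNA levels around the start of S phase, so in a mixed population their RNA is widely read as a sign of cycling cells; the arrays hold no measure of cell cycle phase.

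RNA was taken from 4 sorted populations with 1 Affymetrix array each. These were Fbw7-deficient LSK, wild-type LSK, Fbw7-deficient MP and wild-type MP cells. LSK cells, negative for lineage markers and positive for Kit and Sca1, include the stem cells and multipotent progenitors, and MP cells are Kit-positive myeloid progenitors without Sca1. Each genotype was 1 pool of marrow from 3 mice, and both of its gates come from these animals. Animals of both genotypes had received polyI:C, a double-stranded RNA that induces interferon, 3 times at 20 ug per g, and marrow was taken 2 weeks later. Strain, age, sex, the Fbw7 allele and the means of its deletion are unstated in the sources used here. No group has a replicate. Each difference therefore lies between single arrays, no error between animals can be given and no test was made; the number of arrays limits the precision of every value. A difference is described as 2-fold or 1.5-fold on the log2 scale and set beside the share of all 12239 genes that reached the same fold. More cells in S phase and more RNA per cell cannot be told apart in such bulk samples.

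Values over all genes bear on what follows. The array medians lay between 155 and 159. Fbxw7, the gene of Fbw7, read 1103 in Fbw7-deficient LSK and 1355 in wild-type LSK, and 958 in Fbw7-deficient MP and 691 in wild-type MP, so its probe sets do not check the genotype labels. The 3'/5' ratio of the Gapdh control probe sets, a measure of RNA integrity, was 2.75 in Fbw7-deficient LSK, 4.30 in wild-type LSK, 2.95 in Fbw7-deficient MP and 2.60 in wild-type MP. For the Actb control probe sets it was 2.89, 3.53, 2.99 and 2.67 in that order of arrays. The wild-type LSK array thus had the highest ratio on both controls, by more for Gapdh than for Actb. The part of this array in the results was not tested. Stem cell markers followed the gate labels. Among wild-type cells 12 of 14 were at least 2-fold higher in LSK than in MP (5.05% of all genes). Among Fbw7-deficient cells 9 of 14 were (3.86%). Markers of mature neutrophils and macrophages followed the labels in wild-type cells only. Of 13 that passed the filter, 13 were lower in LSK than in MP among wild-type cells. Among Fbw7-deficient cells 11 of the 13 were higher in LSK and 2 were lower, where 51.8% of all genes were higher. Marker levels differed between the genotypes, and fewer cells of a type and less RNA per cell cannot be told apart here. The summed intensity of those 14 stem cell markers was 11841 in Fbw7-deficient LSK and 28026 in wild-type LSK. For 15 erythroid markers the sum was 53237 in Fbw7-deficient LSK against 25413 in wild-type LSK, and 106116 in Fbw7-deficient MP against 70688 in wild-type MP. Hba-a1 was the only one of these 15 under the level filter on all 4 arrays. The 12 neutrophil and monocyte progenitor markers summed to 142842 in Fbw7-deficient LSK and 83145 in wild-type LSK, but to 186822 and 187821 in Fbw7-deficient and wild-type MP. Such sums weigh the brightest genes most. In MP, the genotype difference was above 0 for 7 of the 12 and below 0 for 5, from -1.22 for Csf1r to 0.43 for Gfi1. The 14 markers of mature neutrophils and macrophages summed to 144562 in Fbw7-deficient LSK, 67427 in wild-type LSK, 118853 in Fbw7-deficient MP and 106441 in wild-type MP. The 13 lymphoid markers summed to 28750.2, 28031, 3345 and 6436 in that order of arrays. Of the 12 that passed the filter, 9 were above 0 and 3 below 0 in the LSK genotype comparison, from -0.59 for Flt3 to 1.76 for Rag1. Itgam and Cd3g were the single members of the last 2 lists under the filter. Their part in the differences between replication genes was not tested.

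The replication genes differed little between the 4 arrays. The span between the highest and the lowest array had a median of 0.34 on the log2 scale over the 35 genes, or 1.27-fold, against 0.43, or 1.35-fold, over all 12239 genes. Orc1 was the single member with a span of at least 2-fold, where 14.9% of all genes had one, and 6 of 35 members (17.1%) spanned 1.5-fold, against 35.4% of all genes. The MCM hexamer genes had spans of 0.10 to 0.19, all under the members' median. The wild-type LSK array was the lowest of the 4 for 17 of 35 members (48.6%), against 36.5% of all genes, and Fbw7-deficient LSK was the lowest for 1 member (2.86%), against 15.3%. The heat map of member values by array shows the even MCM rows between more variable neighbours.

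**Figure D1:**
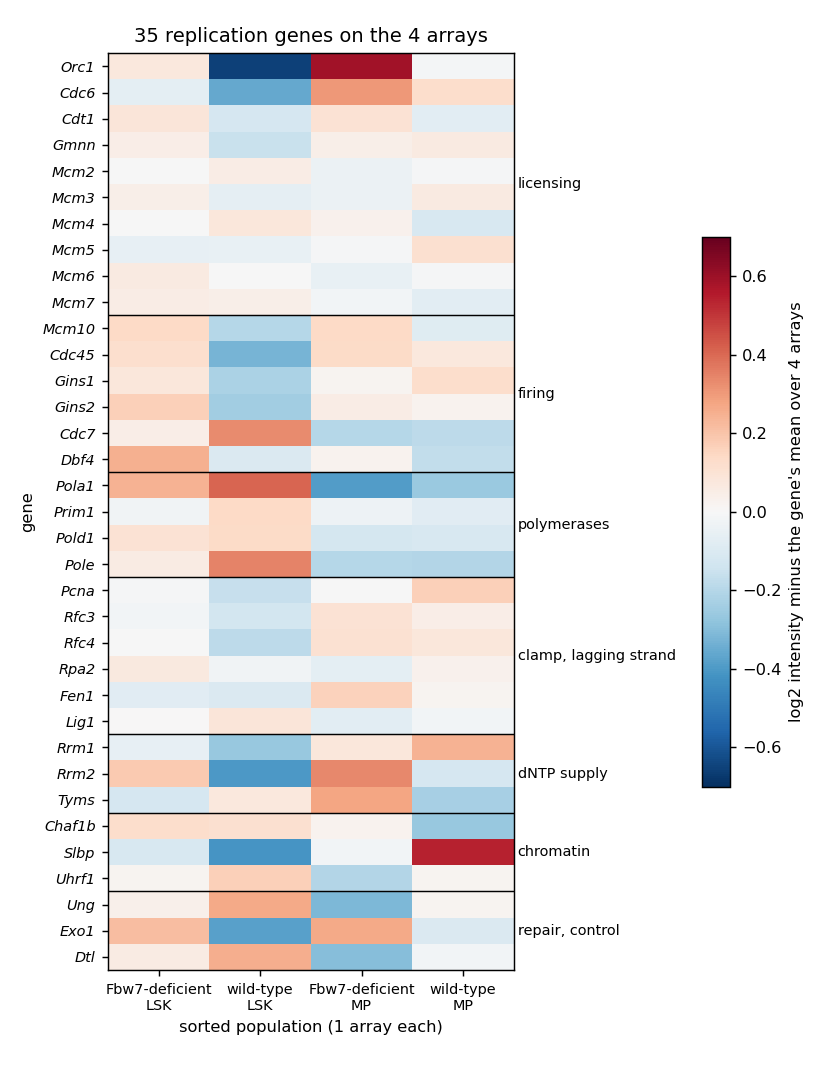
Heat map of the log2 intensity of each of the 35 genes (rows, grouped by role) on each of the 4 arrays (columns), minus the gene's mean over the arrays; red is higher and blue lower. Mcm2 to Mcm7 are nearly white throughout, Orc1 and Slbp carry the strongest colours, and the wild-type LSK column is the bluest for Orc1, Cdc6, Cdc45, Rrm2 and Exo1.

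Loss of Fbw7 in LSK cells came with small differences in both directions. The members had a median log2 difference of 0.09, with 22 above 0 and 13 below 0, and ranged from -0.29 to 0.73; over all genes the median was 0.00 and 50.7% lay above 0. Of the 35, 0 were 2-fold higher, beside 1.79% of all genes, and 0 were 2-fold lower, beside 1.95%. At 1.5-fold, 2 members were higher, Orc1 and Exo1, beside 4.5% of all genes, and 0 were lower, beside 7.08%. With 35 members, these counts lie near the background shares. In MP cells the median was 0.01, with 18 above 0 and 17 below 0, and the range was -0.56 to 0.60. There, 0 members were 2-fold higher (0.825% of all genes) and 0 were 2-fold lower (1.49%). Orc1 was the 1 member that was 1.5-fold higher (2.97% of all genes), and 0 were 1.5-fold lower (5.26%).

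**Figure D2:**
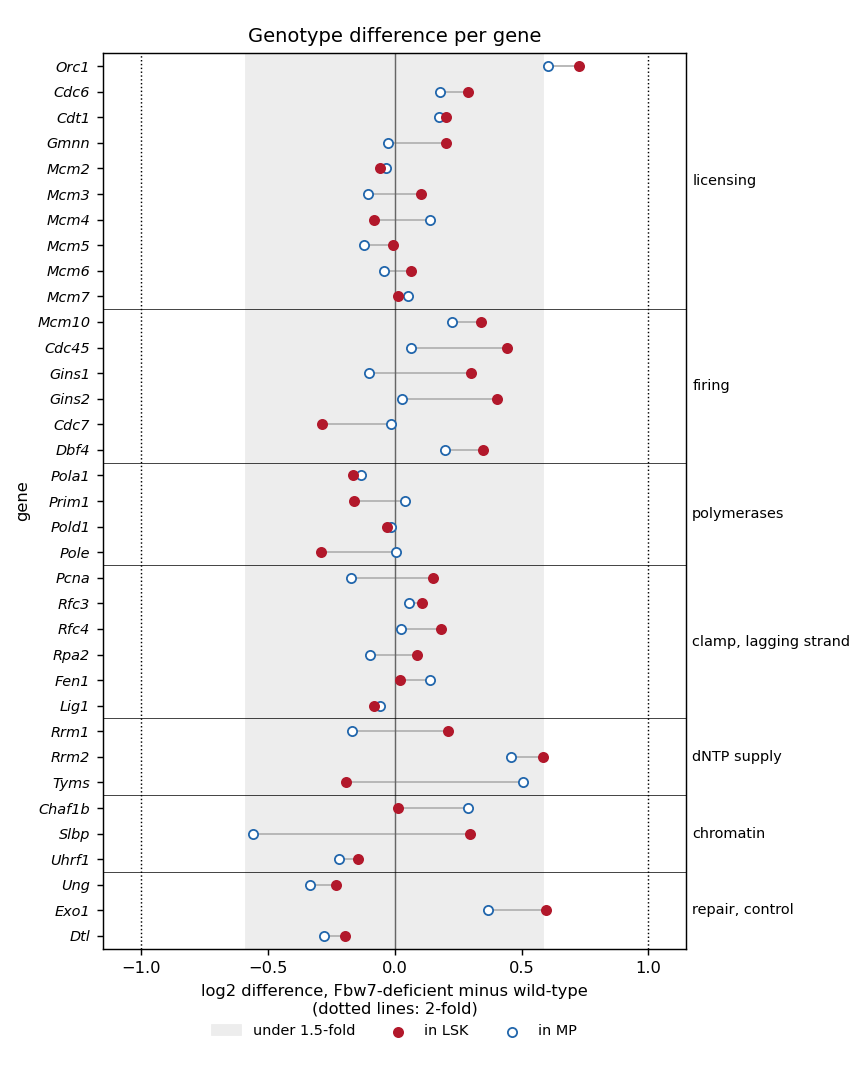
Log2 difference between Fbw7-deficient and wild-type cells for each member, in LSK (filled red) and in MP (open blue), with 1 array per group. The grey band is under 1.5-fold and dotted lines mark 2-fold; Orc1 lies outside the band in both populations, Exo1 just outside it in LSK, and Rrm2 at its edge in LSK, while Slbp and Tyms have their points on opposite sides of 0.

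Licensing began with Orc1, the largest subunit of the origin recognition complex. Orc1 read 783 in Fbw7-deficient LSK against 473 in wild-type LSK, and 1117 in Fbw7-deficient MP against 735 in wild-type MP. It was therefore higher without Fbw7 by log2 0.73 in LSK and 0.60 in MP, and lower in LSK than in MP in both genotypes. Its further probe set gave 0.21 and 0.03 for the same genotype differences, so the size depended on the probe set, and put LSK above MP instead (0.34 in Fbw7-deficient and 0.16 in wild-type cells). Cdc6, an ATPase that helps load the helicase, read 4176 in Fbw7-deficient LSK and 3417 in wild-type LSK, and 5411 in Fbw7-deficient MP and 4781 in wild-type MP (log2 0.29 and 0.18). Cdt1, its partner in loading, differed by 0.20 and 0.17, and its inhibitor gene Gmnn by 0.20 in LSK and -0.03 in MP.

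The subunits Mcm2 to Mcm7 formed the flattest group. Their genotype differences lay between -0.08 and 0.10 in LSK and between -0.12 and 0.14 in MP. Mcm7 read 23831 in Fbw7-deficient LSK, 23640.3 in wild-type LSK, 22706 in Fbw7-deficient MP and 21900 in wild-type MP. Mcm6 read 16519, 15816, 15249 and 15714 in the same order. On these probe sets, all 6 differed by less than the 1.5-fold mark between any of the 4 arrays. For 5 of the 6, the brightest probe set is of a kind that the array maker marks as matching several transcripts. On probe sets of other kinds Mcm7 was at 0.35 in LSK and -0.01 in MP, Mcm5 at 0.21 and -0.46, and Mcm3 at 0.18 and -0.19, while Mcm2 and Mcm4 stayed within 0.03 of 0 in both populations. Over the 12 further MCM probe sets above the filter, values ran from -0.91 to 0.38 in LSK and from -0.90 to 0.18 in MP. The lowest came from a dim Mcm5 probe set, which read 103 in Fbw7-deficient LSK and 193 in wild-type LSK.

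The promoters of members can be set beside these values, since the group is known for E2F control. RefSeq promoter windows of build GRCm38.p6, from 250 bases before to 50 bases after a start, were matched for 29 of the 35 members. Each window was searched on both strands for the 4 E2F forms TTTCCCGC, TTTGGCGC, TTTCGCGC and TTTGCCGC, which can overlap on opposite strands, and for the CCAAT box bound by NF-Y. At least 1 E2F form was found for 13 of 29 members (44.8%), against 704 of 27025 genes in the whole table (2.61%). A CCAAT box was found for 18 of 29 members (62.1%), against 41.1% of all genes. Such matches are letters in a window and not measured sites. The 160 bases before the start are shown for 6 members that the results turn on. They include a pair of MCM genes that were even on their brightest probe sets, and Orc1 and Rrm2, with high values in Fbw7-deficient cells. The others are Slbp, whose genotype difference turned between populations, and Pola1, which was higher in LSK. Capitals mark E2F forms and CCAAT boxes on either strand.
Mcm5, chr8:75109349-75109508, plus strand: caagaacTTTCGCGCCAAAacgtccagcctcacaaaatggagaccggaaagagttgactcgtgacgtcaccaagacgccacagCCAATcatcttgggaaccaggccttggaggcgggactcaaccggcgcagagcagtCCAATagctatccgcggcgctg
Mcm6, chr1:128359706-128359865, minus strand: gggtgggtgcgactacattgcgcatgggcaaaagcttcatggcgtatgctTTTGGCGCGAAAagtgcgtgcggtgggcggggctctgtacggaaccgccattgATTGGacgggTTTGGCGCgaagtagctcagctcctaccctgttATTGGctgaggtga
Orc1, chr4:108579294-108579453, plus strand: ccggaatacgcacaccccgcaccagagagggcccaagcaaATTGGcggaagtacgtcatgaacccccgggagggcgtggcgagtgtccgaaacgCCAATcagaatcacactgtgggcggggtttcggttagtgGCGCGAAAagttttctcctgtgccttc
Rrm2, chr12:24708094-24708253, plus strand: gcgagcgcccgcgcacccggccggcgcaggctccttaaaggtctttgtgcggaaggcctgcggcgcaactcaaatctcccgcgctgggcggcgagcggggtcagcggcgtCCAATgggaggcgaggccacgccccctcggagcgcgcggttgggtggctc
Slbp, chr5:33652575-33652734, minus strand: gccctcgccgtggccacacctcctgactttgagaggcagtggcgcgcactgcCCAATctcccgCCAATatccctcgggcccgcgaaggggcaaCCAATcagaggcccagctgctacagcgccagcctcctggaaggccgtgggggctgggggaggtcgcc
Pola1, chrX:93632156-93632315, minus strand: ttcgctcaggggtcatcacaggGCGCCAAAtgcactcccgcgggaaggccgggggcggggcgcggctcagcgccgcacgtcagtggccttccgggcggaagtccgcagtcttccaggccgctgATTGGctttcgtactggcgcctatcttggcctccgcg
Mcm5 and Mcm6 share a run of 13 bases in opposite orientation, TTTCGCGCCAAAA from position -153 in Mcm5 and its reverse complement TTTTGGCGCGAAA from position -111 in Mcm6, counted from the start. Each run holds TTTCGCGC and TTTGGCGC on opposite strands. Orc1 and Pola1 have 1 E2F form each in the stretch shown. Rrm2 and Slbp have none of these letters there, with 1 and 3 CCAAT boxes. E2F forms were thus found in Mcm5 and Mcm6, flat on their brightest probe sets, and in Orc1 and Pola1, which were not flat. For Mcm5 this depended on the probe set, since its second brightest gave -0.82 for LSK against MP in wild-type cells. The relation of these letters to RNA level was not tested.

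Origin firing factors were mostly higher in Fbw7-deficient LSK cells. On their brightest probe sets, 5 of the 6 were above 0 in LSK, where 50.7% of all genes were. These 5 lay between 0.30 and 0.44, and the median of the 6 was 0.34. In MP 4 of the 6 were above 0 (49.6% of all genes), the median was 0.05 and the range -0.10 to 0.23. Cdc45, a subunit of the active helicase, read 1678 in Fbw7-deficient LSK and 1236 in wild-type LSK, but 1697 and 1625 in Fbw7-deficient and wild-type MP. The wild-type LSK value was low and the other 3 were close together. Gins2, of the GINS complex, had the same layout, at 2719 and 2054 in Fbw7-deficient and wild-type LSK and at 2517 and 2467 in Fbw7-deficient and wild-type MP. Gins1 was at 0.30 in LSK and -0.10 in MP, and Mcm10, a scaffold for helicase activation, at 0.34 and 0.23. These 4 genes were also lower in LSK than in MP among wild-type cells, by log2 values from -0.40 to -0.12, a comparison that uses the same wild-type LSK array with its Gapdh ratio of 4.30. Further probe sets gave 0.40 for Gins1, 0.39 for Gins2, 0.12 for Mcm10 and 0.00 for Cdc45 in LSK. In MP they gave -0.05, 0.33, -0.11 and 0.05 in that order of genes. The further Gins2 probe set read 1288 and 985 in Fbw7-deficient and wild-type LSK, and 1411 and 1126 in Fbw7-deficient and wild-type MP. For Cdc45 the values were 395, 393, 409 and 395 in that order of arrays. The layout of Cdc45 and Gins2 thus depended on the probe set.

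The kinase and its activator went separate ways. Cdc7, the catalytic subunit, read 2231 in Fbw7-deficient LSK against 2718 in wild-type LSK (log2 -0.29), and 1882 and 1900.4 in Fbw7-deficient and wild-type MP. Dbf4, which activates Cdc7, read 5500.3 in Fbw7-deficient LSK against 4320.2 in wild-type LSK (0.35), and 4701 in Fbw7-deficient MP against 4097 in wild-type MP (0.20). Cdc7 was highest on the wild-type LSK array, and Dbf4 on the Fbw7-deficient LSK array. A dimmer Cdc7 probe set gave 0.10 in LSK.

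On their brightest probe sets, the catalytic subunits of the polymerases and the primase differed from most firing factors in direction in LSK. All 4 genes were below 0 in Fbw7-deficient LSK, from -0.29 for Pole to -0.03 for Pold1, and within 0.13 of 0 in MP. Over all genes, 6022 of 12239 were below 0 in the LSK comparison. All 4 polymerase and primase genes were higher in LSK than in MP in wild-type cells, by 0.22 to 0.67 (48.0% of all genes were higher). In Fbw7-deficient cells all 4 were higher too, by 0.02 to 0.64 (51.8% of all genes). Pola1, the catalytic subunit of the polymerase that starts each new strand, read 2950.1 in Fbw7-deficient LSK, 3305 in wild-type LSK, 1895 in Fbw7-deficient MP and 2078 in wild-type MP. Both LSK arrays were above both MP arrays. Pole, the catalytic subunit of the leading strand polymerase, read 3374 in Fbw7-deficient LSK against 4130 in wild-type LSK, with 2829 and 2817 in Fbw7-deficient and wild-type MP. Prim1, the small primase subunit, was at -0.16 in LSK and Pold1, the catalytic subunit of the lagging strand polymerase, at -0.03; their further probe sets gave 0.01 and -0.00 in LSK. For the LSK against MP difference in wild-type cells those probe sets gave -0.06 and -0.08, against 0.22 and 0.24 on the brightest, so the direction for Prim1 and Pold1 depended on the probe set.

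The clamp, its loader and the lagging strand enzymes stayed under 1.5-fold in both genotype comparisons. Pcna, the sliding clamp, read 18634 in Fbw7-deficient LSK against 16759 in wild-type LSK, and 18662 in Fbw7-deficient MP against 21043 in wild-type MP. Its genotype difference was thus 0.15 in LSK and -0.17 in MP, and the Fbw7-deficient values were nearly equal. The loader subunits Rfc3 and Rfc4, the single-strand binding subunit Rpa2, the flap nuclease Fen1 and the ligase Lig1 lay between -0.08 and 0.18 in LSK and between -0.10 and 0.14 in MP. The further Fen1 probe set gave 0.45 in LSK and 0.01 in MP, and the further Rfc3 probe set -0.19 and -0.29.

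Ribonucleotide reductase makes deoxynucleotides, with Rrm1 as its large and Rrm2 as its small subunit. Rrm2 read 9115 in Fbw7-deficient LSK against 6085 in wild-type LSK, and 10152 in Fbw7-deficient MP against 7392 in wild-type MP. That is 0.58 in LSK, just under 1.5-fold, and 0.46 in MP. Both of its dimmer probe sets pointed the same way, with 1.25 and 0.95 in LSK and 0.49 and 0.43 in MP. On the first of these Rrm2 read 3589 in Fbw7-deficient LSK, 1512 in wild-type LSK, 4806 in Fbw7-deficient MP and 3412 in wild-type MP, so the wild-type LSK array was well below the other 3. Rrm1 read 6845 in Fbw7-deficient LSK and 5921 in wild-type LSK, but 7514 and 8441 in Fbw7-deficient and wild-type MP (0.21 and -0.17). Tyms, encoding thymidylate synthase, read 186 in Fbw7-deficient LSK, 213 in wild-type LSK, 244 in Fbw7-deficient MP and 172 in wild-type MP. These values lie close to the filter of 157, and 1 probe set that it shares with a pseudogene was not used, so its differences of -0.19 in LSK and 0.51 in MP rest on a dim signal.

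Slbp, which binds the stem-loop of histone mRNA and is needed for histone supply in S phase, had, on its brightest probe set, the largest wild-type difference between populations among the members (-0.95). It read 4622 in Fbw7-deficient LSK against 3758 in wild-type LSK, and 4934 in Fbw7-deficient MP against 7266 in wild-type MP. On this probe set the wild-type arrays held both the lowest and the highest value. Its genotype difference was 0.30 in LSK and -0.56 in MP, and a dimmer probe set gave 0.26 and -0.22. That dimmer probe set read 319 in Fbw7-deficient LSK, 265 in wild-type LSK, 228 in Fbw7-deficient MP and 265 in wild-type MP, so there the Fbw7-deficient arrays held both extremes and the wild-type population difference was -0.00. Chaf1b, of the chromatin assembly factor that places histones behind the fork, was at 0.01 in LSK and 0.29 in MP. Uhrf1, which guides copying of DNA methylation, was at -0.14 and -0.22 on its brighter probe set and at 0.89 and 0.30 on the dimmer one, where it read 663 in Fbw7-deficient LSK and 358 in wild-type LSK.

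Among the remaining members, Exo1, a DNA exonuclease of mismatch repair and resection, read 1415 in Fbw7-deficient LSK against 937 in wild-type LSK, and 1464 in Fbw7-deficient MP against 1136 in wild-type MP. Its differences were 0.59 and 0.37, with 0.69 and -0.00 on a dimmer probe set. Dtl and Ung went the other way in both populations. Dtl, the receptor through which a CRL4 ligase destroys Cdt1 in S phase, was at -0.20 in LSK and -0.28 in MP, and the uracil glycosylase gene Ung at -0.23 and -0.33. Over 4 further Dtl probe sets above the filter the LSK values ran from -0.30 to 0.25, and 3 of the 4 were above 0, against the direction of the brightest.

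Whether the genotype difference itself changed with population was described by subtracting the MP from the LSK difference. The members had a median of 0.11, with 23 above 0, against a median of 0.00 over all genes. Of the 35, 0 were 2-fold apart in the higher direction (2.2% of all genes) or in the lower (1.32%). Slbp, at 0.86, was the 1 member past 1.5-fold in the higher direction (5.68% of all genes), and Tyms, at -0.70, the 1 member in the lower (5.47%). Opposite signs in LSK and MP were seen for 12 of 35 members (34.3%) and for 37.4% of all genes, so the members lay near the background.

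Between stem cell and myeloid progenitor gates most members differed by less than 1.5-fold in both genotypes. Among wild-type cells the median of LSK minus MP was -0.05 over the 35 members, with 16 above 0 and 19 below 0. Of these, 0 were 2-fold higher in LSK (5.05% of all genes) and 0 were 2-fold lower (2.4%). Pola1 (0.67) was the 1 member 1.5-fold higher (12.7% of all genes), and Slbp (-0.95) and Orc1 (-0.64) were 1.5-fold lower (6.91%). Among Fbw7-deficient cells the median was 0.02, with 0 members 2-fold higher (3.86% of all genes) and 0 lower (1.63%); Pola1 (0.64) was again the 1 member 1.5-fold higher (9.62%), and 0 were 1.5-fold lower (4.74%). The size of the population difference, regardless of sign, had a median of 0.11 in Fbw7-deficient cells and 0.25 in wild-type cells over the members. It was smaller in Fbw7-deficient cells for 27 of 35 members (77.1%), where this held for 57.8% of all genes with medians of 0.21 and 0.25. It held for 23 of 50 further replication genes (46.0%, medians 0.17 and 0.17) and for 23 of 39 mitosis genes (59.0%, medians 0.14 and 0.20), so the other replication genes did not show it. Values close to 0 in Fbw7-deficient cells included Cdc45 (-0.02, against -0.40 in wild-type), Rrm1 (-0.13 against -0.51) and Slbp (-0.09 against -0.95). The other probe set above the filter gave 0.01 against -0.73 for Rrm1, but -0.05 against -0.01 for Cdc45 and 0.48 against -0.00 for Slbp. On the wild-type side this again involves the LSK array with a Gapdh ratio of 4.30.

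**Figure D3:**
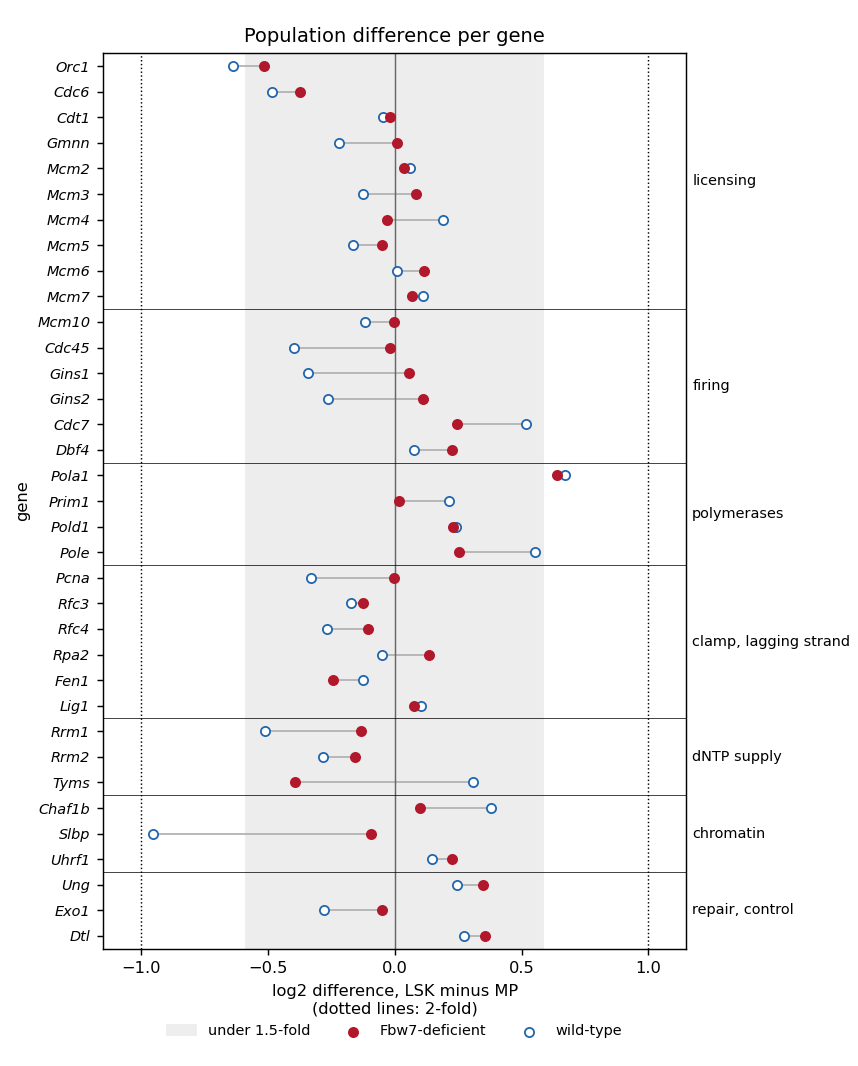
Log2 difference between LSK and MP cells for each member, in Fbw7-deficient (filled red) and wild-type cells (open blue), with 1 array per group. The grey band is under 1.5-fold and dotted lines mark 2-fold; most red points lie nearer 0 than the blue ones, as for Slbp, Cdc45 and Rrm1, while Pola1 is high in both.

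Probe sets of a gene did not always tell the same story, and the disagreement had a direction in LSK. Of 35 further probe sets above the filter, from 25 members, 30 were above 0 in the LSK genotype comparison. Their median was 0.18, whereas their brightest counterparts had a median of 0.09. Over all genes, 4523 of 8635 further probe sets were above 0, with a median of 0.02, against -0.04 for their brightest counterparts. The further probe set was higher than the brightest for 23 of 35 (65.7%), with a median gap of 0.11; over all genes that held for 59.6% of 8635 further probe sets, with a median gap of 0.06. In MP the median gap was -0.04 for members and -0.00 for all genes. The sign matched the brightest probe set for 24 of 35 in LSK (68.6%, against 67.8% of all further probe sets) and for 26 of 35 in MP (74.3%, against 66.6%). Of the LSK arrays, the wild-type one had the higher Gapdh ratio (4.30, against 2.75 in Fbw7-deficient LSK) and the higher Actb ratio (3.53 against 2.89). The part of these ratios in the LSK gap was not tested.

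**Figure D4:**
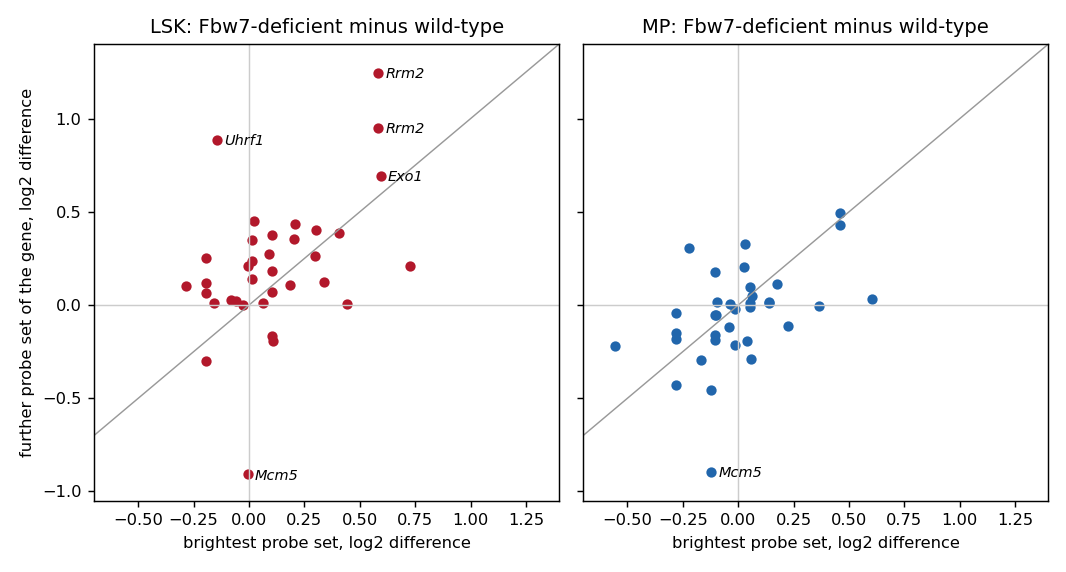
Each point is a further probe set of a member above the level filter, with its own log2 genotype difference (vertical) against that of the gene's brightest probe set (horizontal), in LSK on the left and MP on the right; the diagonal marks equal values. In LSK most points lie above 0 and the labelled Rrm2 and Uhrf1 probe sets lie far above the diagonal, and a dim Mcm5 probe set lies low in both panels.

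Genes of the same pathway outside the 35 spanned 1.5-fold over the arrays for 14 of 50 (28.0%), against 17.1% of the members and 35.4% of all genes. Mitosis genes did so for 8 of 39 (20.5%). A 2-fold span was seen for 2 of the 50 (4.0%) and 1 of the 39 (2.56%), against 2.86% of the members and 14.9% of all genes. A small span was thus not particular to the 35. Of 54 further replication genes listed, 50 are named on the array and all 50 passed the filter. In LSK, 0 were 2-fold higher (1.79% of all genes) or lower (1.95%), 0 were 1.5-fold higher (4.5%) and 1 was 1.5-fold lower (7.08%). The median was 0.10, with 35 above 0 (70.0%, against 50.7% of all genes). The extremes were Rrm2b, a p53-regulated small subunit of ribonucleotide reductase (-0.66), Mcm9 (-0.58), Recql4 (0.55) and Mcmbp (0.51). In MP, 0 were past 1.5-fold higher (2.97% of all genes) or lower (5.26%), with a median of -0.01. In wild-type LSK against MP, Orc5 (-1.03) was the 1 gene past 2-fold lower (2.4% of all genes). With it counted, 4 were 1.5-fold lower (6.91%), and 1 was 1.5-fold higher (12.7%). The median was -0.11 with 35 of 50 below 0, against a median of -0.02 over all genes with 6364 of 12239 below 0.

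Some complexes that include members were then followed over all their subunits, a grouping made after the values were seen. On their brightest probe sets, the 6 subunits of the origin recognition complex were all above 0 in Fbw7-deficient against wild-type cells. They ran from 0.07 to 0.73 in LSK and from 0.12 to 0.60 in MP. Over all genes, 50.7% lay above 0 in LSK and 49.6% in MP. Both upper ends are Orc1, whose further probe set gave 0.21 and 0.03. All 6, on their brightest probe sets, were lower in LSK than in MP, with medians of -0.45 in Fbw7-deficient and -0.38 in wild-type cells. Orc5 had the widest gap, at 1150 in Fbw7-deficient LSK, 1058 in wild-type LSK, 2402 in Fbw7-deficient MP and 2167 in wild-type MP. The 4 GINS genes lay, on their brightest probe sets, between 0.08 and 0.40 in LSK and between -0.13 and 0.11 in MP. The further Gins2 probe set gave 0.33 in MP. The 8 accessory polymerase and primase subunits did not follow the catalytic ones: 6 of 8 were above 0 in LSK, with a median of 0.09. The loader genes Rfc1 and Rfc2 were at -0.21 and -0.30 in LSK, against 0.11 and 0.18 for Rfc3 and Rfc4, but the other Rfc3 probe set above the filter was at -0.19.

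Neighbouring cell cycle genes give the setting. The 39 mitosis genes that passed had a median of 0.11 in LSK, with 32 above 0 (82.1%, against 50.7% of all genes). In MP their median was 0.15, with 28 above 0 (71.8%, against 49.6% of all genes). In MP 0 were 1.5-fold higher (2.97% of all genes) or lower (5.26%), and in LSK 0 were 1.5-fold lower (7.08%). In LSK, 0 were 2-fold higher (1.79% of all genes) and 3 were 1.5-fold higher (4.5%), the condensin gene Ncapg (2909 in Fbw7-deficient and 1457 in wild-type LSK, just under 2-fold), the ubiquitin-conjugating enzyme gene Ube2c (0.87) and the survivin gene Birc5 (0.60). Mki67, a proliferation marker, read 14714 in Fbw7-deficient LSK, 13163 in wild-type LSK, 13859 in Fbw7-deficient MP and 12818 in wild-type MP (0.16 and 0.11). The difference between members and mitosis genes was not tested. Of 16 regulators of S phase entry, 2 were 2-fold higher in LSK (1.79% of all genes) and 2 were 1.5-fold lower (7.08%), and the list median was 0.15 there and 0.04 in MP. The 2 higher genes were E2f2 (1.38 in LSK, 0.78 in MP) and Ccne1, encoding the Fbw7 substrate cyclin E1 (1.02 and 0.95). The 2 lower genes were E2f7, an E2F repressor (-0.72 and -0.45), and Cdkn1c, encoding a cyclin-dependent kinase inhibitor (-0.67 and -0.01). Cdkn1c passed the filter of 157 only through wild-type LSK, at 180. It read 113 in Fbw7-deficient LSK, and 101 in both Fbw7-deficient and wild-type MP, so its LSK difference rests on a dim signal. E2f1 was at 0.27 in LSK and -0.27 in MP, Ccne2 at 0.38 and 0.53 and Myc at 0.19 and 0.13. 

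**Figure D5:**
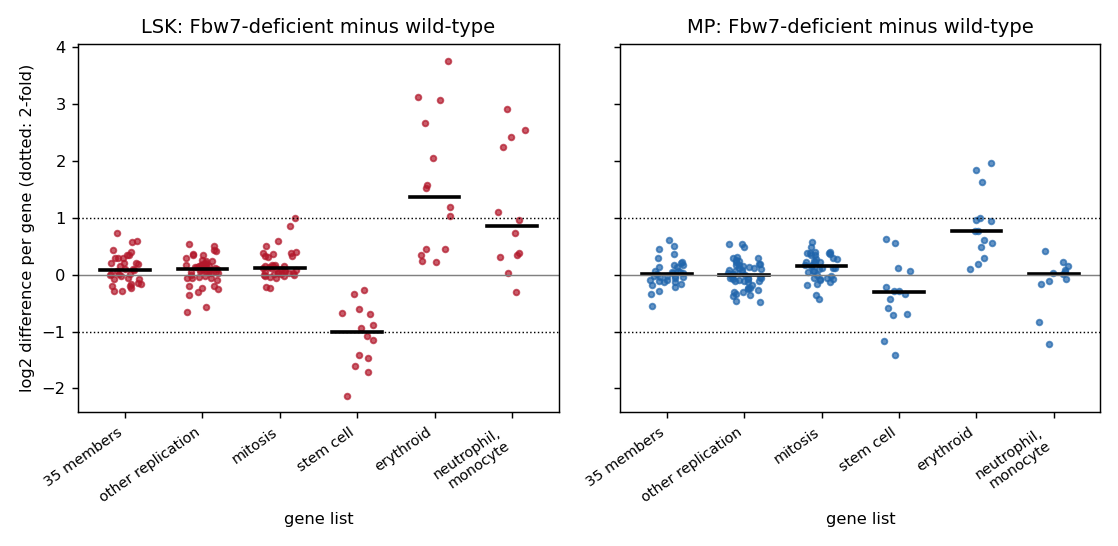
Log2 genotype difference of each gene that passed the filter (points) by gene list, in LSK on the left and MP on the right; black bars are list medians and dotted lines mark 2-fold, with 1 array per group. The 35 members, the other replication genes and the mitosis genes stay near 0, whereas stem cell markers lie low and erythroid markers high in LSK.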

How the data were processed

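The deposited table holds 1 intensity per probe set and array on a linear scale. Per the submitters' processing notes the authors used RMA; the version and settings were not given in the sources used here. Per the labels' protocols, 20 ng of total RNA was amplified in 2 cycles and labelled with biotin. RMA makes the arrays' distributions alike, so a change common to most genes cannot appear, and it compresses dim genes. No detection calls were used.

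Of 45101 probe sets, 34945 name 1 gene, 932 name several and were not used, and 9224 are unnamed or controls; 34741 symbols were updated by gene ID through a RefSeq table of assembly GRCm38.p6. Values were taken to log2 and arrays subtracted with Python 3.11.15 and pandas 2.3.3, over all genes with a highest value of at least 157. No test was possible with 1 array per group. Summaries were tested on simulated data. Members and lists were chosen with earlier results of these data known. All members are named; from other lists, up to 4 genes with the largest difference, and Fbxw7, Ccne1, Ccne2, E2f1, E2f2, Mki67 and Myc. Named outside that rule, after their values were seen, are the subunits of complexes, Hba-a1, Itgam, Cd3g and the genes behind small counts. In 7 alternative settings the steps changed were the probe set rule, level filter, centring, offset and normalization; the second brightest probe set was added after seeing the data.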

Additional observations from a re-analysis of the deposited data

Results flagged for a closer look

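For 6 members the genotype difference had opposite signs in LSK and MP, with both sizes at least 0.1 on the log2 scale. The share of all genes that met this rule was not counted. Opposite signs of any size were seen for 34.3% of members and 37.4% of all genes. With 1 array per group the difference between populations was not tested. LSK minus MP, it was 0.86 for Slbp, 0.40 for Gins1, 0.38 for Rrm1, 0.33 for Pcna, 0.21 for Mcm3 and -0.70 for Tyms. In 5 of these the LSK value was above 0 and the MP value below 0. Tyms, with its dim signal, ran the other way on its brightest probe set, but not on the next, which is under the filter. A dimmer Slbp probe set gave 0.48, and the further Gins1 probe set and the further Rrm1 probe set above the filter also had an LSK value above 0 and an MP value below 0.

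Probe sets that the comparisons by gene do not use passed 2-fold for 2 members. A further Rrm2 probe set was at 1.25 for Fbw7-deficient against wild-type LSK and at -1.17 for LSK against MP in wild-type cells, both of which share the wild-type LSK array. A further Mcm3 probe set was at 1.10 for LSK against MP in Fbw7-deficient cells, reading 3032 in Fbw7-deficient LSK and 1417 in Fbw7-deficient MP, with 2336 in wild-type LSK and 1583 in wild-type MP, while the brightest Mcm3 probe set was at 0.08.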

How the results depend on the processing

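No paired analysis was possible because each group has 1 array and the groups share 1 replicate number; for the same reason no array could be left out. The 5 medians over the members moved by less than 0.1 (log2) under all 8 alternatives. They ranged from 0.08 to 0.18 for the LSK genotype difference, from -0.02 to 0.02 for that in MP, from -0.12 to -0.03 for LSK against MP in wild-type cells, from -0.01 to 0.08 in Fbw7-deficient cells and from 0.08 to 0.18 for the LSK minus the MP genotype difference. Counts of members moved as follows; the cause was not tested beyond the other probe sets themselves. Without probe sets of the kinds marked as matching several transcripts, and likewise with the second brightest probe set, 1 member was 2-fold higher in Fbw7-deficient LSK and 1 was 2-fold lower in LSK against MP among wild-type cells, instead of 0. In that wild-type comparison the number 1.5-fold lower was 5 and 4 under these settings, and 1 when all probe sets were averaged, instead of 2; the number 1.5-fold higher was 0 with that average. The number 1.5-fold higher in Fbw7-deficient LSK was 1 instead of 2 with that mean and with log2 of the value plus 50. In MP it was 0 instead of 1 with the mean, with the added 50 and with the second brightest probe set. For LSK against MP in Fbw7-deficient cells it was 0 instead of 1 with the mean and with quantile normalization of the 4 arrays, and 2 with the second brightest probe set. For the LSK minus the MP genotype difference, the number past 1.5-fold in the higher direction was 0 with the mean, 3 without the marked kinds and 4 with the second brightest probe set, instead of 1, and in the lower direction 0 instead of 1 with the mean, with the stricter filter (an intensity of 606), which leaves out Tyms, and with the added 50. Orc1 changed sign for LSK against MP in wild-type cells, at 0.16 on its second brightest probe set against -0.64. Centring and dropping the level filter moved 0 of 25 summary values by these measures.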
